A study of Mus musculus with 8 samples.

Results

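Solute carriers are a large superfamily of membrane transport proteins, and this account describes their transcripts in mouse spermatogenic cells mapped for N6-methyladenosine (m6A). The members were the genes whose symbol begins with Slc and a number in any of 4 deposited lists of m6A peaks. They came to 127 of the 8733 genes with a peak, and carried 390 of 35697 peaks. The given RefSeq annotation (GRCm38.p6) holds 375 protein-coding genes with such symbols, so 33.9% of them had a peak. The symbol rule also took in 4 genes that are not transporters, Slc4a1ap, Slc7a6os, Slc9a3r1 and Slc9a3r2, which are kept in all counts. All 127 members were found in the gene count table.

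Methylated RNA immunoprecipitation sequencing (MeRIP-seq) reads RNA fragments pulled down with an m6A antibody beside unselected fragments, called input. Testes of C57BL/6 mice aged 12 weeks gave the cells, from wild-type (WT) animals and from Alkbh5-/- animals (KO), which lack an RNA demethylase that removes m6A. Labels call the cell fractions PA and RO, and by the series title these are pachytene spermatocytes, cells in meiosis, and round spermatids, the haploid cells that come after. An input library and an immunoprecipitated library stood for each genotype in each fraction, making 8 samples in 8 groups. With 1 library per group no difference here has a replicate check or a test, and every value describes these libraries. Whether a library pooled several animals is not given in the sources used here. Where 4 values are given without names they stand in library order, which is WT PA, KO PA, WT RO, KO RO.

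Solute carriers move ions, sugars, amino acids, metals, nucleotides and vitamins across the plasma membrane and the membranes of organelles, and families are numbered by sequence relation. In the testis, germ cells depend on glucose and lactate transport fed by Sertoli cells, and sperm need ion and proton exchange for motility and capacitation. An m6A mark is placed on pre-mRNA by a methyltransferase complex, mostly in a sequence context with the core GGAC, often near stop codons and in 3′ untranslated regions (UTRs). Reader proteins bind the mark and alter splicing, export, decay or translation of the transcript.

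The 4 input libraries held between 9921365 and 13147239 counts. Of the members, 126 had a CPM of at least 1 (CPM is the read count relative to the size of its library, here adjusted by TMM factors) in a library, 105 had at least 10, and 121 had counts in all 4 libraries. Markers of other cells and stages moved with the groups. The summed CPM of 5 of 7 listed elongating spermatid genes was 149, 485, 258 and 923 in library order. For 4 of 8 listed pachytene genes it was 2403, 1317, 2153 and 1526, so these markers were about as high in RO as in PA. The round spermatid list (4 of 8 genes) summed to 75.4, 100, 176 and 161. By gene, 3 of these 4 were higher in KO than in WT in each fraction, with median log2 ratios of 1.19 in PA and 0.85 in RO. Acrv1, which had the largest counts of the list, was lower in both (-0.09 and -0.81). Of testicular somatic cells, Leydig genes (2 of 6) summed to 136, 40, 41.5 and 16.7, Sertoli genes (4 of 7) to 239, 318, 172 and 198, and endothelial genes (3 of 4) to 80.3, 86.8, 38.8 and 117. The macrophage gene Csf1r (1 of 4) was at 2.13, 12.3, 6.86 and 21.5, and the peritubular gene Myh11 (1 of 4) at 285, 272, 143 and 226. Spermatogonia genes (3 of 6) summed to 32.1, 62, 23.8 and 41.1. None of these markers was at 0 in any library, and their part in the results below was not tested. Alkbh5 itself was not analysed here, since genes without a peak carry no symbol in the files, so the genotype labels were not checked on it.

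Solute carrier peaks numbered 87, 99, 114 and 90 in library order, in 67, 74, 87 and 72 genes. They made up 1.16%, 0.997%, 1.21% and 1.02% of the peaks of their lists. In PA the KO list held 1.14 times the member peaks of WT (95% exact binomial interval 0.844 to 1.54), beside 1.32 over all peaks. In RO it held 0.789 times as many (0.592 to 1.05), beside 0.939 over all peaks. Both member intervals include 1 and cover counting error only. When only peaks with a false discovery rate below 0.05 and a fold of 5 or more were counted, the PA ratio was 1.45 (1.04 to 2.04), the same as the 1.45 of all peaks under those limits. The RO ratio was then 0.909 (0.663 to 1.24), beside 0.974 over all peaks.

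The substrate classes that carried the most peaks were amino acids and neurotransmitters, with 77 peaks in 24 genes, and then metals and the ion exchangers, with 54 peaks each. The class called ion exchangers here, for protons, bicarbonate, chloride and other anions, had 18 genes with a peak of 42 in RefSeq. It takes in family 12 (6 genes), to which the cotransporter genes Slc12a2 and Slc12a5 belong, since transporters were put into classes by family number alone. The metal class had 14 of 33 genes, the mitochondrial carriers of family 25 had 16 of 47, and the nucleotide sugar carriers of family 35 had 10 of 27. Sugar carriers had 9 of 34 genes but 49 peaks, of which Slc5a3 and Slc45a4 supplied 22. Among the small classes, phosphate carriers had 4 of 5 genes with a peak, calcium exchangers 4 of 9, and organic cation and anion carriers 6 of 27. Families 14 (urea), 18 (vesicular amines) and 44 (choline) were among those with no member. A peak in all 4 lists was most frequent in metal carriers, with 8 of 14 genes, and nearly as frequent in sugar carriers, with 5 of 9. Ion exchangers had 7 of 18, amino acid carriers 6 of 24 and all members 36 of 127.

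**Figure D1:**
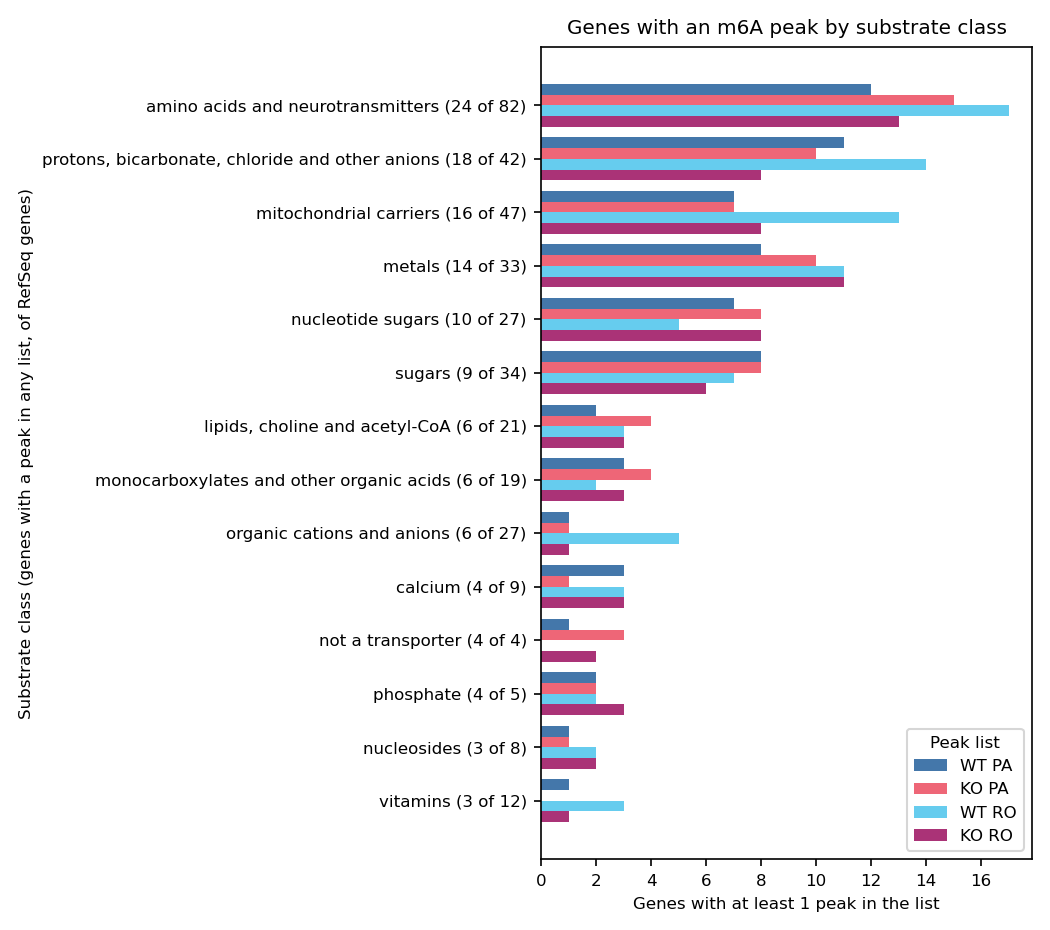
The bars give the number of genes with at least 1 peak in each of the 4 peak lists, by substrate class; beside each class stand its genes with a peak in any list and its RefSeq genes. Amino acid carriers lead in every list, with 12, 15, 17 and 13 genes in library order, and organic cation and anion carriers have 5 genes in WT RO and 1 in each other list.

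Counted by peak, the positions in the transcript annotated by the authors leaned more to the 3′ UTR than those of protein-coding genes. Coding sequence still held more member peaks over all lists, 163 against 147. Shares of solute carrier peaks in a 3′ UTR were, in library order, 37.9% (Wilson 95% interval 28.5 to 48.4), 36.4% (27.6 to 46.2), 39.5% (31 to 48.6) and 36.7% (27.4 to 47). For the peaks of all protein-coding genes the shares were 23.3%, 24.3%, 28.3% and 26.9%. Coding sequence held 43.7%, 42.4%, 38.6% and 43.3% of solute carrier peaks, against 63.5%, 61.5%, 57.4% and 59.7% for protein-coding genes. The 4 lists share genes and sites, so the shares are not independent of each other. Counted by gene over all lists, 63 of 127 members had a 3′ UTR peak (49.6%, 41.1 to 58.2), and 44.2% of 7214 protein-coding genes with a peak did. A coding sequence peak was found in 54 members (42.5%, 34.3 to 51.2), against 61.1% of those protein-coding genes. By gene, then, the member interval lay below the share of protein-coding genes for coding peaks and included it for 3′ UTR peaks.

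Among peaks, amino acid carriers had 47 of the 147 solute carrier peaks in 3′ UTRs, which was 61% of their own peaks, and 20 in coding sequence. Without them 31.9% of the remaining 313 peaks lay in a 3′ UTR. By gene the class was less apart, with a 3′ UTR peak in 15 of 24 genes (62.5%, 42.7 to 78.8), and metal carriers had one in 9 of 14 (64.3%, 38.8 to 83.7). All 7 peaks of Slc7a5, the exchanger that imports large neutral amino acids, all 5 of Slc36a1, a proton-coupled amino acid carrier of lysosomes, all 5 of Slc43a2 and all 4 of Slc38a2, a sodium-coupled carrier of neutral amino acids, were in the 3′ UTR. Phosphate carriers were at the other end, with none of 10 peaks in a 3′ UTR, 7 in coding sequence and 3 in a 5′ UTR. Of the metal carriers' 54 peaks 25 were coding and 19 in a 3′ UTR.

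**Figure D2:**
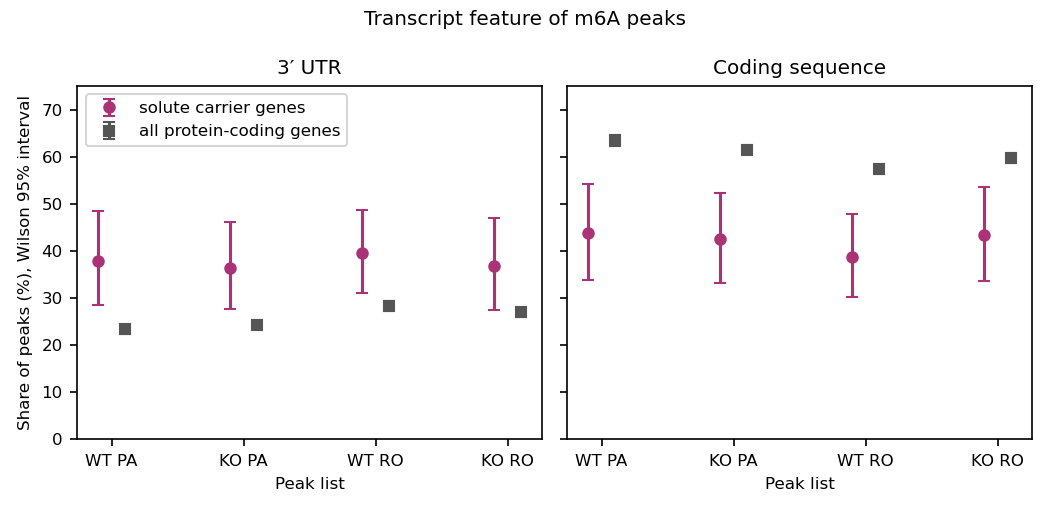
The points give the share of peaks annotated to the 3′ UTR (left) and the coding sequence (right) in each list, for solute carrier genes and for all protein-coding genes, with Wilson 95% intervals that cover counting error only. In every list the solute carrier share lies above that of protein-coding genes for the 3′ UTR, as 37.9% against 23.3% in WT PA, and below it for coding sequence.

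Of the members, 36 had a peak in all 4 lists (28.3%), where 34.4% of all genes with a peak did. Peaks in a single list belonged to 47 members, and 27 of those were in WT RO, 8 in KO PA, 6 in WT PA and 6 in KO RO. The WT RO genes were 21.3% of the members, beside 14.3% of all genes with a peak. At a false discovery rate under 0.05 they were 24 of 113 members (21.2%), beside 10.9% of all genes. The 27 genes counted over all listed peaks included all 3 glutamate and neutral amino acid carriers of family 1 with a peak (Slc1a2, Slc1a3 and Slc1a5). They also held 6 mitochondrial carriers (Slc25a2, Slc25a11, Slc25a27, Slc25a33, Slc25a35 and Slc25a36), and 4 genes of the organic cation and anion class (Slc22a14, Slc22a15, Slc22a16 and Slc22a21). Of these named genes, Slc1a2, Slc1a3 and Slc25a33 had no peak under that false discovery rate. Both KO lists and no WT list held 5 members, Slc10a3, Slc16a7, Slc30a9, Slc35e1 and Slc7a1 (3.94%), where 6.87% of all genes with a peak had this pattern. With the false discovery rate limit the shares were 4.42% and 8.19%. Both WT lists and no KO list held 5 others, Slc24a3, Slc33a1, Slc35a4, Slc45a3 and Slc52a3 (3.94%), beside 2.32% of all genes. With the limit 2 members were left (1.77%), beside 1.89% of all genes.

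Sites were compared by exon blocks on the same strand with an overlap of at least 1 bp. A peak of the other genotype was found over 73.6% of the WT PA peaks (63.4 to 81.7) and 61.6% of the KO PA peaks (51.8 to 70.6). In RO it was 44.7% of the WT peaks (35.9 to 53.9) and 53.3% of the KO peaks (43.1 to 63.3). Over all genes the shares were 79.7%, 56.6%, 55.9% and 58.9% in the same order. The WT RO share was the lowest of the 4, and its interval lay below that of all WT RO peaks. A site that overlapped a peak in every list was found in 30 members. Such peaks were 41.4%, 32.3%, 29.8% and 35.6% of the member peaks in library order, and 52.3%, 37.8%, 41.2% and 43.5% of all peaks.

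**Figure D3:**
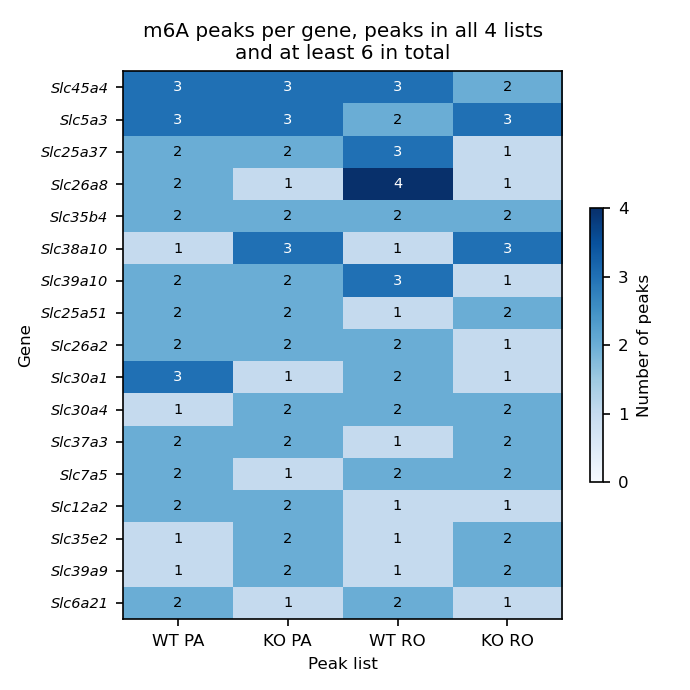
Each cell gives the number of m6A peaks of a gene (rows) in a peak list (columns), for the 17 members with a peak in all 4 lists and at least 6 peaks in total. Slc45a4 and Slc5a3 head the grid with 11 peaks each, and Slc26a8 has 4 peaks in WT RO and 1 in each KO list.

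Peaks per member ranged from 1, in 42 genes, to 11, with a median of 2. The fold enrichments given here are the authors' own values, and they are set against each other only within a list. The sodium and myo-inositol cotransporter gene Slc5a3 (ENSMUSG00000089774, chromosome 16) had 3, 3, 2 and 3 peaks in library order, of which 10 were annotated to coding sequence. Its peak at chr16:92078060-92079409 (mm10) had the highest solute carrier fold of KO PA, 151, and the WT RO peak at chr16:92078030-92079409 had the second highest of that list, 358. All 11 also lie within the RefSeq gene Mrps6, so the transcript they come from is uncertain. Slc45a4 (chromosome 15), a proton-coupled sugar carrier, had 4 peaks in the 5′ UTR, 4 in coding sequence and 3 in the 3′ UTR. Its 5′ UTR site was in all 4 lists, with folds of 22.4, 57.2, 12.8 and 34.7 in library order. Its 3′ UTR site was in every list but KO RO.

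Mitoferrin 1, Slc25a37, which imports iron into mitochondria, had 8 peaks that were all labelled exon, without a label of coding sequence or UTR. The site of its KO PA peak, chr14:69248896-69249225, was in all 4 lists, and the KO RO peak there (fold 141) was the highest of the solute carriers in that list. The mitochondrial outer membrane protein Slc25a46 had 1 coding peak in each list, and that of WT RO had the highest member fold of that list, 474. The fatty acid carrier Slc27a1 followed Slc5a3 there, with a fold of 301 in an exon class. In WT PA the 3 highest folds belonged to coding peaks of Slc35g3 (83.3), Slc8a2 (79.1) and Slc30a4 (68.5). Slc38a10, of a family of amino acid carriers, had 3 peaks in each KO list and 1 in each WT list. Its 3′ UTR site (chr11:120104856-120105095 in KO PA) was in both KO lists and in neither WT list. Slc38a10 counts were 739, 639, 769 and 603 in library order. Slc35b4, a nucleotide sugar carrier, had 2 peaks in every list, 1 of them at a coding site shared by all 4. Of its 8 peaks, 5 had a false discovery rate under 0.05.

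Most peaks of the metal class were in zinc carriers, 21 in 5 genes of family 30, which moves zinc out of the cytosol, and 26 in 5 genes of family 39, which moves it in. Slc39a10 had 8 peaks, 7 of them coding, and the KO RO peak that spans chr1:46832618-46853525 in 3 blocks had a fold of 73.8. Slc39a6, its close relative, had 5 coding peaks and no other, with folds of 94.9 in KO RO and 108 in WT RO. Slc39a7 had 5 peaks in an exon class while its counts were only 35, 23, 10 and 30 in library order. A listed peak of the gene Gm20427 lies over them. In Slc39a9 the 3′ UTR site was in all 4 lists, and a 5′ UTR site, over which a listed peak of Erh also lies, was in both KO lists and in neither WT list.

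No genome sequence was used, but 4 members had a 5′ UTR peak that reached into the RefSeq promoter window of 300 bases, 250 before and 50 after a transcript start. The shared bases were searched for GGAC, the core of the m6A context, on the strand of the gene. Those of the zinc exporter Slc30a1 (WT PA peak, fold 40.1, also in the RefSeq gene 1700034H15Rik) held it 2 times in 64 bases, and those of Slc35g3 (KO RO peak, fold 9.32) once in 121 bases. Among all RefSeq windows 22.8% and 34.9% hold it at the same positions. The shared bases of Slc39a9 and Slc7a8 held no GGAC. The first match of each of the former genes is shown with GGAC in capitals, from RefSeq (GRCm38.p6), on the plus strand at chr1:191906783-191906812 and the minus strand at chr11:69761877-69761906.
Slc30a1: gggcgaagacggcGGACgcctccgggccga
Slc35g3: ctaaaatcagcctGGACaacttagcgaact
A match is a description of letters, and no peak summit was located at it.

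The input counts address whether transcript levels of these genes differ with loss of Alkbh5. In PA, 8 of 124 members were at least 2-fold higher in KO than in WT and 22 at least 2-fold lower. In such bulk fractions, fewer cells of a type and less RNA per cell cannot be told apart. The background over all genes at a CPM of at least 1 was 23.8% higher and 19.9% lower, and over genes with a peak 13% higher and 14.1% lower, against 6.45% and 17.7% of the members. In RO, 13 of 125 members were higher (10.4%) and 24 lower (19.2%). Over all genes these shares were 23% and 19%, and over genes with a peak 13.3% and 13.7%. The median log2 ratio of the members was -0.22 in PA and -0.11 in RO, against 0.04 in both for all genes and -0.05 in both for genes with a peak, and on total counts the members' medians were 0.08 and 0.07. At this limit the shares that were lower stood near those of all genes and above those of genes with a peak, and the shares that were higher stood below both. At a CPM of at least 10, 16 of 102 members were lower in PA (15.7%, beside 13% of all genes) and 22 of 101 in RO (21.8%, beside 12.9%). The members higher at that level were 5 in PA (4.9%, beside 13.3% of all genes) and 9 in RO (8.91%, beside 11.8%). The split depended on the scaling. On those total counts, without TMM factors, 18 members were higher and 14 lower in PA, and 16 higher and 18 lower in RO. Over the 43 genes named by rule, that scaling moved the log2 ratios by a median of 0.29 in PA and 0.18 in RO.

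The PA and RO ratios share no library. Of 105 members with a CPM of at least 10, 11 were at least 2-fold lower in KO in both fractions (10.5%), beside 5.96% of all genes and 6.05% of genes with a peak at that level. At least 2-fold higher in both was 1 member (0.952%), beside 5.39% of all genes and 4.04% of genes with a peak. No member was past 2-fold in opposite directions, beside 0.98% of all genes. On total counts 7 members were lower in both and 3 higher, the latter Slc26a2, Slc30a4 and the scaffold gene Slc9a3r2. Slc12a5, Slc6a16, Slc6a21 and Slc9b1 were then each under 2-fold in 1 fraction.

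**Figure D4:**
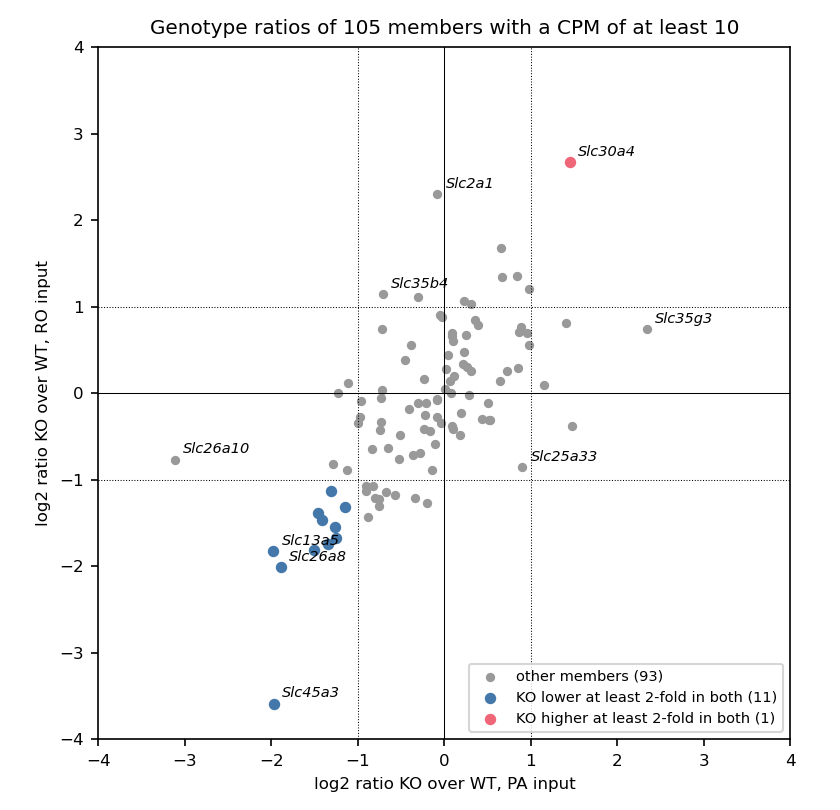
Each point is a member with a CPM of at least 10 in a library, with the log2 ratio of KO over WT in PA input (horizontal) against RO input (vertical), 1 library per group and TMM scaling. The 11 blue points lie below -1 on both axes, Slc30a4 is alone above 1 on both, and Slc2a1 is at -0.08 in PA and 2.30 in RO.

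Among genes lower in KO in both fractions, 5 encode carriers of inorganic ions. Slc26a8 (ENSMUSG00000036196), the sperm anion transporter needed for chloride and bicarbonate flux in sperm, had 2506, 624, 2607 and 614 counts in library order. Both WT libraries were high and both KO libraries low, with log2 ratios of -1.89 (-2.02 to -1.76) in PA and -2.01 (-2.14 to -1.89) in RO. These intervals are exact binomial, cover counting error only and leave out the spread between animals. A coding site (chr17:28638201-28638619 in KO RO) was in all 4 lists, while its 3′ UTR and 5′ UTR peaks were in WT RO alone. Slc9b1, a sodium and proton exchanger of the sperm tail, had 2111, 786, 1676 and 726 counts in the same order. Its log2 ratios were -1.31 and -1.13, and its 1 coding site was in all 4 lists. Slc9a5, another exchanger of that kind, had 2393, 771, 2642 and 709 counts, with ratios of -1.51 and -1.82, and a peak in WT RO alone. The potassium and chloride cotransporter gene Slc12a5, whose 1 peak is above the false discovery rate limit, had 1082, 447, 941 and 358 counts, and the sodium and calcium exchanger gene Slc8a2 had 590, 197, 483 and 174. Slc8a2 had 2, 0, 3 and 1 peaks in library order, and the coding peak with a fold of 79.1 in WT PA is its own.

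The other 6 carry amino acids, sugars, citrate or organic cations, or have no assigned substrate. Slc6a21, an orphan of the neurotransmitter transporter family, had 5428, 2080, 6977 and 2267 counts in library order. Its log2 ratios were -1.27 (-1.34 to -1.19) and -1.55 (-1.62 to -1.48), and a coding site was in all 4 lists. Its relative Slc6a16 had 485, 187, 455 and 134 counts. The proline carrier Slc6a7 had 172, 58, 405 and 138 counts, with log2 ratios of -1.42 in PA and -1.47 in RO, and was higher in RO than in PA in both genotypes. Slc13a5, the sodium and citrate cotransporter, had 873, 202, 886 and 236 counts. Slc47a2, an exporter of organic cations, had 1907, 691, 1633 and 459. Slc45a3, of the same family as Slc45a4, had 368, 85, 149 and 10 counts, so that both KO libraries were below both WT libraries, and its log2 ratio in RO was -3.59 (-4.92 to -2.91). Its only peaks were 1 coding peak in each WT list, and just 1 of these 2 had a false discovery rate under 0.05. Together the 11 genes had 10, 5, 15 and 5 peaks in library order. The summed CPM of pachytene markers was also lower in both KO libraries and that of elongating spermatid markers higher. In the pachytene list Sycp2 had the largest counts, with log2 ratios of -1.11 in PA and -0.71 in RO, while Sycp1 had -0.09 and 0.25. The part of these markers in the ratios of the 11 genes was not tested.

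**Figure D5:**
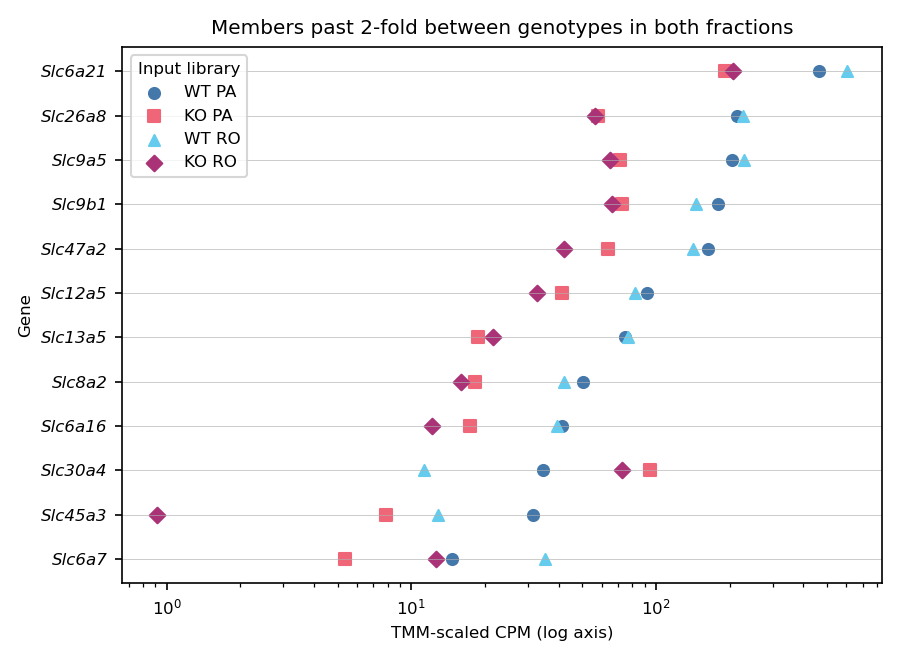
Each marker is the TMM-scaled CPM (log axis) of a gene in 1 input library, for the 12 members past 2-fold between genotypes in both fractions; levels are not comparable between genes, whose lengths differ. In 11 genes each WT library lies to the right of the KO library of the same fraction, and in Slc30a4 both KO libraries, at 94.6 and 72.6, lie to the right of WT at 34.6 and 11.3.

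Promoter windows of the genes lower in KO in both fractions were searched on both strands for 3 short motifs of factors known from male germ cells. Of the 13 windows of 10 of these genes, 1 held the cAMP response element half-site TGACG, 9 the MYB core AACNG and 1 the X-box half-site GTTGCC. Of all 32851 RefSeq windows 20.8%, 80.3% and 12.5% hold them, and of the 119 windows of 92 members 21.8%, 74.8% and 14.3%. The motifs were chosen after the count ratios were seen. Short stretches before the transcript start of the 3 genes with large counts are shown with the motif letters in capitals, which read in the reverse complement. They lie at chr17:28690107-28690136 on the minus strand, chr8:105348088-105348117 on the plus strand and chr7:45282744-45282773 on the plus strand.
Slc26a8: atttaggtaagtCTGTTgagctttcttagg
Slc9a5: gagctggtgatcCCGTTagttccattgcta
Slc6a21: ctggacgcatggCGTCAggctggaggccat
The first base of the match lies 137, 158 and 117 bases before the start. The MYB core match of Slc26a8 and Slc9a5 is a motif that most windows hold.

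Slc30a4, a zinc exporter of vesicles, was the 1 member higher in KO in both fractions. It had 406, 1023, 130 and 795 counts in library order. Both KO libraries were above both WT libraries, and the log2 ratios were 1.45 (1.28 to 1.62) and 2.67 (2.42 to 2.96). A coding site was in WT PA, KO PA and KO RO, and a 3′ UTR site in KO PA, WT RO and KO RO. The related exporter Slc30a1 had 343, 589, 345 and 557 counts, with log2 ratios of 0.89 and 0.76. Slc5a3 had 1618, 2884, 1415 and 2173 counts, with ratios of 0.95 and 0.69, also under 2-fold. The cationic amino acid carrier Slc7a1 had 347, 851, 288 and 483 counts, with ratios of 1.41 in PA and 0.81 in RO. Its 4 peaks, 3 in the 3′ UTR and 1 at the stop codon, were all in KO lists, 3 in PA and 1 in RO.

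Other genes were among the 4 highest or lowest ratios of a single fraction, ranked at a CPM of at least 10 with counts in every library. In PA, Slc26a10 had 139 counts in WT and 13 in KO (log2 ratio -3.12), against 98 and 54 in RO. Its only peak lies also over B4galnt1 and is above the false discovery rate limit. Slc35g3 had 26 and 129 counts in PA, with a ratio of 2.34 (1.81 to 3.10), and 80 and 128 in RO, with 0.74. Slc7a14 had 67 and 176 counts in PA, with a ratio of 1.48, and 132 and 96 in RO, with -0.38. In RO the glucose carrier Slc2a1 had 54 counts in WT and 260 in KO, a log2 ratio of 2.30 (1.91 to 2.79), while PA had 288 and 252. The WT RO library was low and the other 3 were alike. The WT RO peak list was also the 1 list with no Slc2a1 peak, against 1 in each PA list and 3 in KO RO, all in the 3′ UTR and all under listed peaks of Gm12868. The endothelial marker Kdr had 372, 355, 89 and 427 counts in library order, and the part of such cells in the Slc2a1 value was not tested. The mitochondrial branched-chain amino acid carrier Slc25a44 and the zinc importer Slc39a1 had ratios of 1.68 and 1.34 in RO, and 0.65 and 0.66 in PA.

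A list of 17 transporters known from sperm and germ cells was looked up, of which 11 had a peak. The other 6, Slc9b2, Slc9c1, Slc26a3, Slc26a6, Slc25a31 and Slc4a2, are not analysed here. Of the 11, none was at least 2-fold higher in KO, while 2 were lower in PA and 3 in RO. Over all genes at a CPM of at least 1, 23.8% were higher and 19.9% lower in PA, and 23% and 19% in RO. The medians of the 11 were -0.36 in PA and -0.42 in RO, and -0.08 and -0.25 on total counts. The lower ones in PA were Slc26a8 and Slc9b1, and in RO Slc2a3 joined them. Slc2a3, the high-affinity glucose carrier of spermatids, had 4726, 2371, 4910 and 1736 counts, with log2 ratios of -0.88 in PA and -1.43 in RO, and a peak in every list but KO RO. The lactate carriers went different ways. Slc16a7 had 568, 953, 851 and 1323 counts and ratios of 0.86 and 0.71, with peaks in the KO lists alone. Slc16a1 had 831, 464, 269 and 428 counts and ratios of -0.72 in PA and 0.74 in RO. The proton exchanger Slc9a8 (-0.21 and -0.12) stayed under 2-fold in both fractions, as did Slc22a14 (0.53 and -0.31) and Slc22a16 (0.10 and -0.42), both of family 22. So did the thiamine carrier Slc19a2 (-0.36 and -0.72) and the chloride cotransporter Slc12a2 (0.09 and 0.69).

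By class, ion exchangers, sugar carriers, calcium exchangers and vitamin carriers had medians below 0 in both fractions, on total counts too. The 3 vitamin carriers were at -0.36 in PA and -0.48 in RO, and at -0.08 and -0.31 on total counts. Of the 18 ion exchanger genes, 6 were at least 2-fold lower and 1 higher in PA, beside 19.9% and 23.8% of all genes. In RO 6 were lower and 2 higher, beside 19% and 23%. The medians of the class were -0.70 in PA and -0.64 in RO (on total counts -0.41 and -0.46). Slc9a3, among the lower genes in both fractions, had 62, 1, 61 and 17 counts in library order. Slc26a1, among the higher ones in both, had 0, 16, 0 and 21, and neither gene reached a CPM of 10 in any library. Sugar carriers had medians of -0.88 and -0.42 over 9 genes, and the 4 calcium exchangers -0.61 and -0.83. Metal carriers were near 0, with medians of 0.07 and 0.12 and no gene past 2-fold lower in either fraction, though the magnesium carrier family gene Slc41a3 stood at the limit in PA, with 439 counts in WT and 202 in KO, while total counts gave 0.36 and 0.30. Amino acid carriers were at 0.06 in PA and -0.29 in RO over 24 genes, and at 0.35 and -0.11 on total counts. Mitochondrial carriers were at -0.01 and 0.03 over 16 genes, and at 0.27 and 0.20 on total counts.

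The comparison of RO with PA asks how levels differ between the cell stages. In WT, 14 of 124 members were at least 2-fold higher in RO (11.3%) and 14 lower (11.3%). Over all genes the shares were 21.6% and 18.7%, and over genes with a peak 12.4% and 10.7%. In KO, 13 of 126 were higher (10.3%) and 10 lower (7.94%), beside 17.5% and 15.2% of all genes and 7.36% and 6.66% of genes with a peak. The medians were -0.16 in WT and -0.07 in KO. These comparisons use the same 4 libraries as those between genotypes.

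Higher in RO in both genotypes, at a CPM of at least 10, were 3 members (2.86%, beside 2.08% of all genes), all of them amino acid and transmitter carriers. The vesicular glutamate carrier Slc17a7 had 34 and 154 counts in WT PA and WT RO, and 58 and 179 in KO. The glutamate carrier Slc1a2 had 186 and 548 counts in WT and 181 and 520 in KO, with log2 ratios of 1.58 (1.34 to 1.83) and 1.49 (1.26 to 1.76). It had 2 peaks, both in the 3′ UTR of WT RO and above the false discovery rate limit. Slc6a7 was the third. Lower in RO in both were 5 members (4.76%, beside 1.72% of all genes). The zinc exporter Slc30a2 had 570 and 141 counts in WT and 558 and 213 in KO, ratios of -1.97 and -1.40, with 1 peak in its 3′ UTR in every list. The neutral amino acid exchanger Slc7a8 had 1392 and 458 counts in WT and 771 and 347 in KO, with 5′ UTR peaks in both PA lists and none in the RO lists. The mitochondrial carrier Slc25a30 had 813 and 377 counts in WT and 755 and 371 in KO, while its peaks were in the RO lists alone. Slc45a3 and Slc9a3r2 were the others. Leydig and Sertoli marker sums were also lower in RO in both genotypes, and their part was not tested.

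Among genes at a CPM of at least 10 with counts in every library, the 4 highest and lowest stage ratios in WT also held Slc2a1 (-2.34), Slc35b4 (-2.01, 220 and 52 counts) and Slc30a4 (-1.60) on the low side, and Slc29a3 and Slc36a4 on the high side. Slc29a3, a nucleoside carrier of lysosomes, had 358 and 981 counts in WT and 288 and 386 in KO. The amino acid carrier Slc36a4 had 272 and 643 in WT and 339 and 497 in KO. In KO, Slc10a7 (log2 ratio -1.08) was among the 4 lowest and Slc41a3 (1.23) among the 4 highest of that ranking.

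Peaks and levels were set side by side. In RO, the 39 members with a peak in the WT list alone had a median KO over WT log2 ratio of -0.43, and the 22 measured of 24 with a peak in the KO list alone had 0.23. Over all genes with those patterns the medians were -0.25 and 0.10. In PA, the 16 members with a peak in the WT list alone had -0.38 and the 23 in the KO list alone -0.24, beside -0.28 and 0.07 over all genes. A peak is called on reads of its own transcript, so its presence is not independent of the level. Some peaks stood in genes with hardly any counts. The input library of the same name held 0 counts for the gene at 4 member peaks (1.03%, beside 1.7% of all peaks), those of Slc10a3 in KO PA, Slc26a1 and Slc5a2 in WT RO, and Slc34a3 in KO RO. The Slc10a3 peak lies also in the RefSeq gene Gm44504 and that of Slc26a1 in Idua. In all, 14 members had another RefSeq gene or a listed peak of another gene over a peak, and the handling of strand in the counts is not given in the sources used here.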

How the data were processed

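The members and gene lists were chosen with earlier results of these data known. The motifs, the promoter stretches shown and the set of protein-coding genes were chosen after values were seen. Per the submitters' processing notes cutadapt 2.5, HISAT2 2.1.0 and HOMER 4.10.4 were used with mm10. The peak caller, counting tool, annotation and strand handling are not given in the sources used here. The authors deposited whole-number gene counts of the 4 input libraries and 4 peak lists, assigned by their names. Each list gives the authors' fold enrichment (a ratio), p-value and log10 false discovery rate. TMM factors from edgeR 4.0.16 (R 4.3.3) gave log2 CPM with a prior count of 2, and a gene was kept in a comparison where 1 of its libraries reached a CPM of 1. Named genes were those with a peak in all lists and 8 or more peaks, the 3 highest folds per list, the 4 highest and lowest ratios per comparison, those past 2-fold in both fractions, and the sperm list; others were chosen after their values were seen. DESeq2 size factors were an alternative. Scripts were tested on simulated data. Values of some genes named by this rule are not reported here.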

Additional observations from a re-analysis of the deposited data

Results flagged for a closer look

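Of the 105 members with a CPM of at least 10, 3 had genotype ratios of opposite sign in PA and RO with a size of at least 0.5 on the log2 scale in each. That limit was chosen after none passed at 2-fold in both. They were 2.86% of the members, beside 5.16% of all genes at that level. The difference between fractions was not tested. For Slc16a1, a lactate carrier, the KO over WT log2 ratio was -0.72 in PA and 0.74 in RO, a difference (RO minus PA) of 1.46. For Slc35b4 it was -0.71 in PA and 1.14 in RO, a difference of 1.85, and its counts were 220, 123, 52 and 111 in WT PA, KO PA, WT RO and KO RO. For Slc25a33, a mitochondrial nucleotide carrier, it was 0.90 in PA and -0.86 in RO, a difference of -1.77, with 126, 219, 279 and 145 counts in that order. On total counts the PA ratios of Slc16a1 and Slc35b4 were both -0.43, under the limit, and Slc25a33 alone met it (0.952%, beside 4.82% of all genes).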

How the results depend on the processing

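Most results kept their value: of the alternatives to the counts, medians, shares and ratios that answer a comparison, 60 changed little and 9 moved. Numbers of members past 2-fold were compared there without regard to direction. The changed split of higher and lower members between genotypes on total counts is therefore among the 60. On total counts the median log2 ratio of KO over WT changed sign, to 0.08 in PA and 0.07 in RO. With a CPM of at least 10, 17 members were past 2-fold between stages in WT and 11 in KO. With a reciprocal overlap of 50%, 60.9% of WT PA and 34.2% of WT RO peaks had a counterpart in the other genotype. With the same gene as the criterion it was 74.7% for KO PA peaks, 60.5% for WT RO and 66.7% for KO RO. The cause of these changes was not tested beyond the construction of each alternative. Of 172 ratios of 43 named genes 60 were past 2-fold. Total counts took 4 of them under 2-fold and 5 others past it, a prior count of 0.5 took 1 past it, DESeq2 size factors moved none across, and no ratio past 2-fold changed sign under these. No paired analysis was possible because the groups share fewer than 2 replicate numbers, each holding 1 library. A fit of genotype with the cell fraction as a block, which takes the difference between fractions as error, was not run. Depth limits genes with few counts, such as Slc39a7 and Slc45a3 in KO RO.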
